A study of Caenorhabditis elegans with 6 samples.

Results

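Complex B of intraflagellar transport (IFT-B) was examined through 10 of its subunit genes, *osm-1*, *osm-5*, *osm-6*, *che-2*, *che-13*, *dyf-1*, *dyf-6*, *dyf-11*, *ift-74* and *ift-81*. They were chosen by name as subunits of the complex, with earlier results of these data known. All 10 were found among the 46756 genes of the count table. Messenger RNA came from whole *Caenorhabditis elegans* hermaphrodites on adulthood day 2, grown at 20 °C on plates with *Escherichia coli* OP50. Worms with fewer than 2 exophers each made up the low exopher group (3 libraries), and worms with more than 20 each made up the high exopher group (3 libraries). Exophers are large extracellular vesicles, here those that body wall muscle releases. All libraries came from 1 strain, ACH93, in the wild-type N2 background. It carries 2 integrated reporters driven by the body wall muscle promoter of *myo-3*, a red proteasome subunit (*wacIs1*, RPN-5 fused to wrmScarlet) and a green protein sent to mitochondria by part of TOMM-20 (*wacIs14*). The groups therefore differed in a trait that was scored and not in genotype or treatment. How many worms went into each library is not given in the material read. The labels name the replicates biological, with no more detail, so p-values measure the spread between these libraries.

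Cilia are built and kept up by intraflagellar transport, in which kinesin-2 motors carry trains of proteins along the axoneme to the tip and dynein-2 brings them back. IFT-B is the part of the train tied to outward movement and to the delivery of tubulin, whereas complex A (IFT-A) serves the return and membrane cargo. In *C. elegans* the only ciliated cells are sensory neurons. Mutants of many IFT-B genes, though not of all, have short cilia, take up no dye from the medium and fail in chemotaxis or osmotic avoidance. These defects gave the *dyf*, *che* and *osm* genes their names. Many of these genes are switched on by DAF-19, a transcription factor of the RFX family.

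The genes have 1 to 5 annotated transcripts each and lie apart from each other in the genome. In WBcel235 (Ensembl release 115), 6 of the 10 are on chromosome X, where 14.3% of the 15883 genes tested lie, with 2 on chromosome I and 1 each on chromosomes II and V. Over all tested genes of X the median log2 fold change, high over low exopher, was -0.0086, while 4.85% of them were higher past the thresholds (107 genes beside the IFT-B genes), against 1.72% to 3.44% on the other 5 chromosomes. The part of the chromosome in the IFT-B result was not tested. Total counts per library were between 60511481 and 72909583. As a mean over genes, the 3 libraries within each group all differed beyond counting noise, which was not examined for the IFT-B genes alone. Of all genes tested, 469 passed the thresholds with higher values in high exopher worms and 442 with lower values.

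Of the 10 IFT-B genes, *osm-5*, *ift-81*, *che-2* and *che-13* were higher in worms with many exophers, by 2.36-fold to 3.43-fold in mean normalized count, and none was lower. These 4 had an adjusted p under 0.05 in edgeR's quasi-likelihood test, corrected over all genes, and a log2 fold change above 1, as did 2.95% of all genes in this direction. A log2 fold change above 1, whatever its p, was seen in 7 of the 10 genes and in 5.77% of all genes. Every one of the 10 had a log2 fold change above 0, against 47.2% of all genes, and their median was 1.26, against -0.013 over all genes. In 9 of the 10 each high exopher library lay above each low exopher library, which 11.8% of all genes did in this direction. The exception was *osm-1*, in which the groups overlapped. Normalized counts here are counts scaled to a common library size by TMM (trimmed mean of M values), and all fold changes are high over low. In RNA of whole worms, fewer cells of a type and less RNA per cell cannot be told apart.

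**Figure D1:**
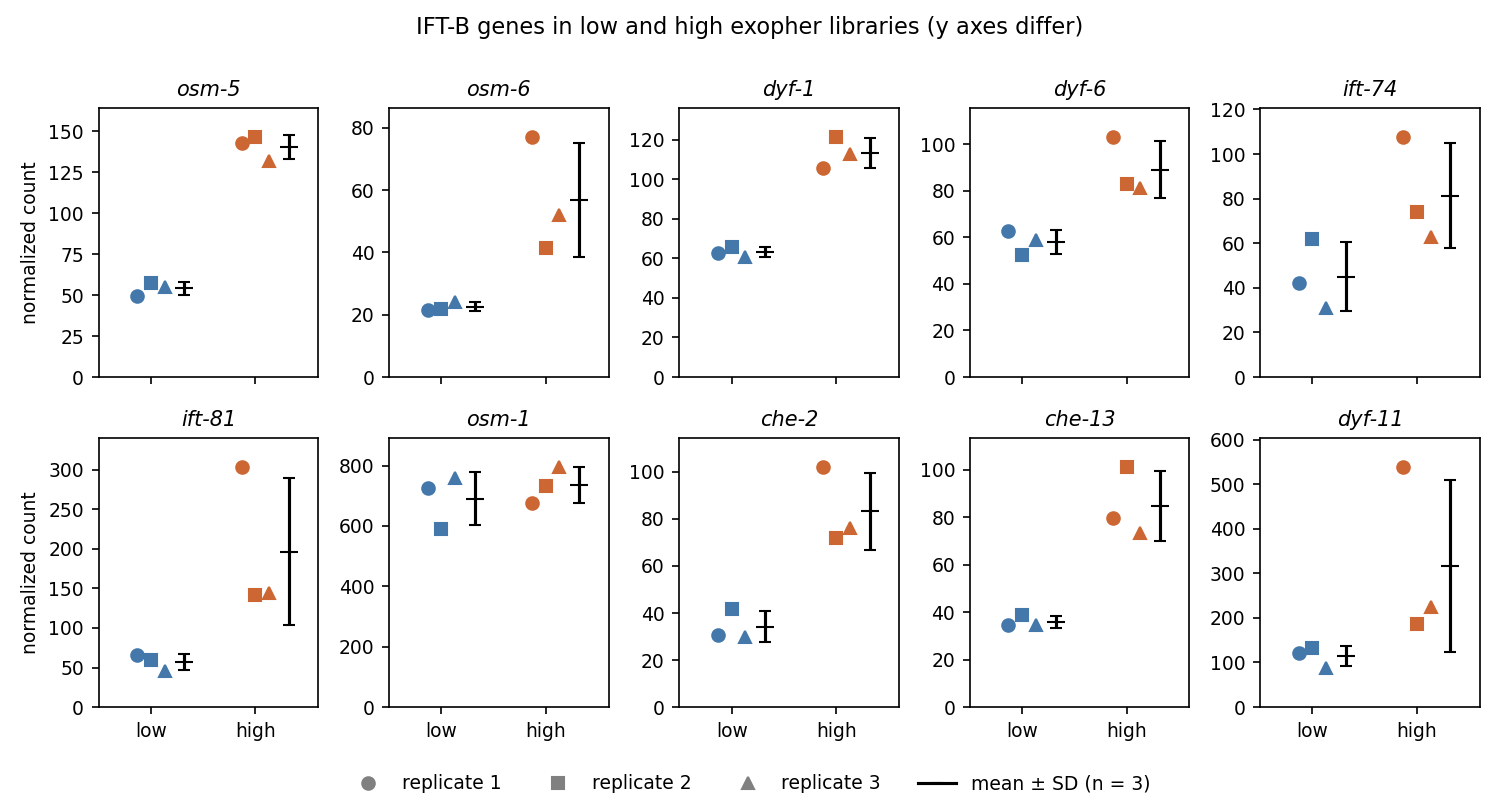
Normalized counts (y axis, scale differs between panels and starts at 0) of the 10 IFT-B genes in the low and the high exopher libraries (x axis). Each point is a library, its shape gives the replicate number, and bars show the mean ± SD of 3 libraries. The groups are apart in 9 panels and overlap for *osm-1*, and high replicate 1 stands well above the other libraries for *ift-81* and *dyf-11*.

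Among the subunits whose counterparts form the core of the complex (IFT-B1), *osm-5* (WBGene00003885) had the smallest adjusted p of the 10. It lies on chromosome X from 2984263 to 2991478 on the forward strand, in 15 exons, and encodes the counterpart of vertebrate IFT88, a subunit made largely of tetratricopeptide repeats. Its normalized counts were 49.5, 57.6 and 55.2 in low and 143, 147 and 132 in high exopher worms. The libraries of each group were thus close together and far from those of the other group. The mean went from 54.1 ± 4.12 to 141 ± 7.58 (SD, n = 3), a log2 fold change of 1.38 (SE 0.23, adjusted p = 0.0170 from edgeR). Without low replicate 2 the adjusted p was 0.0257 from edgeR, and without any other single library it was between 0.0514 and 0.0616, while the log2 fold change stayed between 1.30 and 1.42.

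*ift-81* (WBGene00017973) had the largest change of the 10. It lies on chromosome X from 5298561 to 5306542 in 19 exons, and its product is a coiled-coil partner of IFT-74, a pair that binds tubulin in human and algal cilia. Normalized counts were 66.3, 59.6 and 46.0 in low and 303, 141.6 and 145 in high exopher libraries. All high exopher libraries were above all low ones, and high replicate 1 held more than the other libraries of its group. The log2 fold change was 1.77 (SE 0.37, adjusted p = 0.0308 from edgeR). Leaving out high replicate 1 gave 1.31 (adjusted p = 0.0736 from edgeR). The call held without low replicate 2 (adjusted p = 0.0485) and was lost without any one of the other 5 libraries (0.0542 to 0.0968). The gene shares 72 exon bases with *ags-3* on the other strand.

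Its partner *ift-74* (WBGene00016005), on chromosome II from 6680024 to 6683544, did not pass. Normalized counts were 42.05, 61.7 and 31.03 in low and 108, 73.8 and 62.6 in high exopher libraries. The groups were barely apart, since the lowest high exopher library was 1.01 times the highest low one. This gave 0.85 on the log2 scale (SE 0.36, adjusted p = 0.277 from edgeR). The spread between low exopher libraries was wide for this gene, with an SD of 15.6 on a mean of 44.9.

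*osm-6* (WBGene00003886), the counterpart of IFT52, which links other subunits of the core, had the smallest counts of the set, between 21 and 83 per library. It lies on chromosome V from 11924621 to 11927446. Normalized counts were 21.5, 21.98 and 24.1 in low and 77.0, 41.5 and 52.0 in high exopher libraries. The low exopher libraries were nearly equal and the high ones scattered, although each exceeded all the low ones. The log2 fold change of 1.33 (SE 0.34) missed the threshold, with an adjusted p of 0.0654 from edgeR. A fit that takes libraries with the same replicate number as pairs gave 1.30 and an adjusted p of 0.0387 from edgeR, and DESeq2's Wald test gave 0.0225. The exact Poisson 95% interval of its smallest count, 21, runs from 13 to 32.1 and covers counting error only.

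*dyf-1* and *dyf-6* gave smaller differences. *dyf-1* (WBGene00001117), on chromosome I from 4989548 to 4994675, is the counterpart of IFT70 and is needed in *C. elegans* for the kinesin OSM-3 to drive transport. Its normalized counts were 62.6, 65.9 and 60.9 in low and 106, 121 and 113 in high exopher libraries, with little scatter within either group. The log2 fold change was 0.84 (SE 0.23, adjusted p = 0.0805 from edgeR), and the replicate block gave 0.84 (adjusted p = 0.0492), still under the fold change minimum. *dyf-6* (WBGene00001122), the counterpart of IFT46, lies on chromosome X from 10379693 to 10386508. Its normalized counts were 62.6, 52.3 and 58.6 in low and 103, 82.9 and 80.96 in high exopher libraries. These groups also stood apart, by a factor of 1.29 between their nearest libraries. Its log2 fold change was 0.62 (SE 0.25, adjusted p = 0.261 from edgeR). Of its 2313 exon bases, 153 are shared with *rme-4* on the same strand, so part of its reads could be lost or misplaced in counting, and *rme-4* itself had a log2 fold change of -0.095.

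Of the subunits whose counterparts form the peripheral part (IFT-B2), *che-2* and *che-13* passed the thresholds. *che-2* (WBGene00000484), the counterpart of IFT80, lies on chromosome X from 481450 to 486504. Normalized counts were 30.8, 41.9 and 29.9 in low and 102, 71.8 and 76.1 in high exopher libraries, so that the lowest high library was 1.72 times the highest low one. This gave 1.28 on the log2 scale (SE 0.30, adjusted p = 0.0460 from edgeR). *che-13* (WBGene00000492), the counterpart of IFT57, lies on chromosome I from 10506998 to 10515586. Normalized counts were 34.6, 38.7 and 34.5 in low and 79.8, 101 and 73.2 in high exopher libraries, apart by a factor of 1.89. Its log2 fold change was 1.23 (SE 0.27, adjusted p = 0.0378 from edgeR). Both calls were close to the threshold. With single libraries left out, the adjusted p from edgeR was between 0.0499 (without low replicate 2) and 0.155 for *che-2*, and between 0.0691 and 0.129 for *che-13*, which lost its call each time.

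*dyf-11* (WBGene00001127), the counterpart of IFT54, which acts early in the assembly of transport particles in *C. elegans*, lies on chromosome X from 763752 to 766739. Normalized counts were 121, 132 and 88.5 in low and 538, 186 and 225 in high exopher libraries. The groups did not overlap, but high replicate 1 was far above both other high libraries. On the log2 scale the change was 1.48 (SE 0.42, adjusted p = 0.0933 from edgeR), and without high replicate 1 it was 0.85 (adjusted p = 0.181). The replicate block gave 1.35 (adjusted p = 0.0393 from edgeR), and DESeq2's Wald test gave an adjusted p of 0.00736.

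*osm-1* (WBGene00003883) gave the smallest difference of the 10. The gene lies on chromosome X from 16540674 to 16551211 in 25 exons and encodes the counterpart of IFT172, the largest subunit. Normalized counts were 724, 590 and 759 in low and 676, 732 and 795 in high exopher libraries. The 2 groups were interleaved, and within replicate number 1 the low exopher library was the higher one. The log2 fold change was 0.088 (SE 0.16, adjusted p = 0.872 from edgeR), while its counts, between 564 and 825 per library, carry the least counting error of the set. Without low replicate 2 the value was -0.029. It shares 45 of 6024 exon bases with K08B5.2 on the other strand, and K08B5.2 had a log2 fold change of -0.21.

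The 4 calls were easily lost when a library was left out. With the same edgeR test, 3 of the 10 genes passed without low replicate 2. Without any one of the other 5 libraries 0 of the 10 passed, while 7 or 8 had an unadjusted p under 0.05. With all 6 libraries that p was under 0.05 in 9 of the 10, and in 2708 of the 15883 genes tested (either direction). The calls over all genes fell too, to between 5 (without high replicate 1) and 465 (without low replicate 2) with higher values. The size of the difference moved less, and the median log2 fold change of the 10 genes stayed between 0.97 (without high replicate 1) and 1.34 (without high replicate 3). DESeq2's Wald test called 6 of the 10, where it called 4.10% of all genes in this direction, and edgeR with the replicate block also called 6, where it called 4.29% of all genes. In both cases the added genes were *osm-6* and *dyf-11*. With limma-voom 4 passed, as did 2.53% of all genes.

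**Figure D2:**
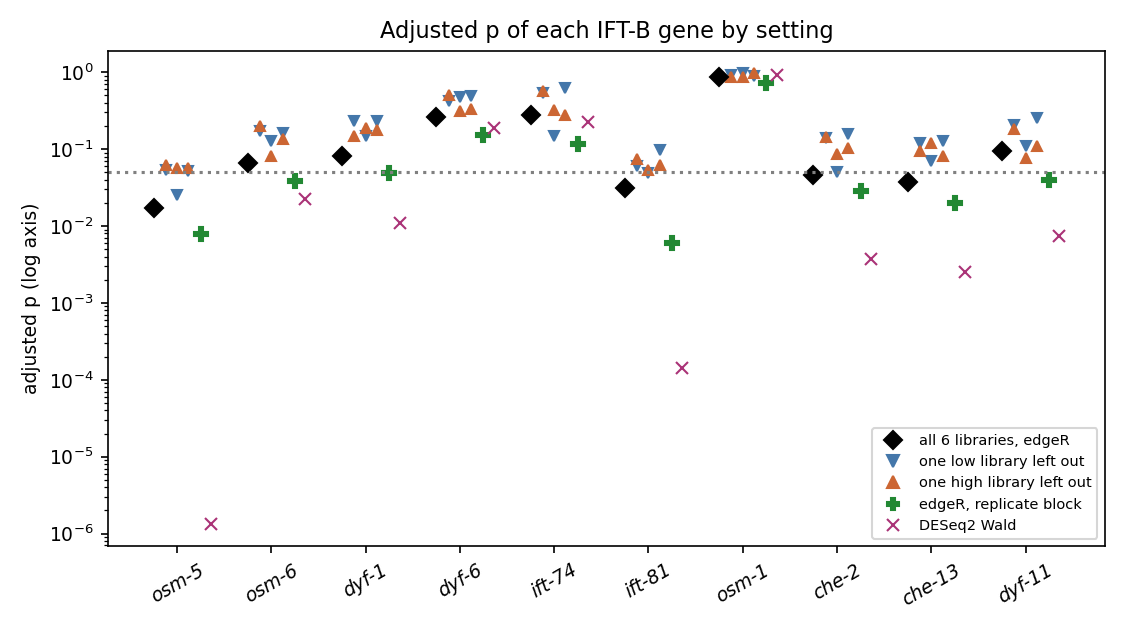
Adjusted p (y axis, log scale) of each IFT-B gene (x axis) with all 6 libraries, with 1 library left out in turn, with the replicate block and with DESeq2. The dotted line is the threshold of 0.05. With 1 library left out, only the points of *osm-5*, *ift-81* and *che-2* without low replicate 2 are under the line, and those of *osm-1* are near 1 in every setting.

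Libraries of the same replicate number were also set side by side, although the labels do not say whether they were collected together. In number 1 the high exopher library was above the low one in 9 of the 10 genes, with a median log2 ratio of 1.43. In number 2 it was above in all 10, with a median of 0.82, and in number 3 in all 10, with a median of 1.08. The medians over all genes were between -0.015 and -0.00096, and the median of the 10 genes was largest in number 1. Over the 3 numbers together, 9 of the 10 genes had the high exopher library above in each, as did 21.1% of all genes. For these 9 any matching of libraries gives this, since their groups did not overlap. High replicate 1 was the highest library of its group in 6 of the genes.

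Levels of different genes were compared as RPKM, that is, as CPM (counts scaled to a common library total, TMM-adjusted) divided by the length of annotated exons in kilobases. In low exopher worms *osm-1* had the highest level of the 10, at 1.70 ± 0.22 (SD, n = 3), followed by *dyf-11* at 0.983 ± 0.19 (SD, n = 3). The libraries of these 2 genes overlapped neither each other nor the next gene. The other 8 lay between 0.215 for *che-2* and 0.377 for *ift-81*. Among these, neighbours in the order overlapped in every case except between *che-13* and *osm-5*. All 10 were thus under 2 RPKM in low exopher worms.

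In high exopher worms the order was headed by *dyf-11*, at 2.74 ± 1.67 RPKM (SD, n = 3), then *osm-1* at 1.81 ± 0.15 (SD, n = 3) and *ift-81* at 1.29 ± 0.61 (SD, n = 3). Neighbours overlapped throughout except between *osm-5* at 0.800 and *dyf-6* at 0.570. The first place of *dyf-11* rested on high replicate 1, at 4.65 RPKM against 1.66 for *osm-1*. In high replicates 2 and 3 *osm-1* was the higher gene, with 1.80 against 1.61 and 1.96 against 1.94 RPKM. The share of *osm-1* in the summed RPKM of the 10 genes was 34.1%, 28.1% and 38.5% in low exopher worms and 12.7%, 21.1% and 22.4% in high exopher worms, without overlap. The share of *ift-81* went the other way, from between 6.23% and 8.35% to between 10.9% and 15.2%.

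**Figure D3:**
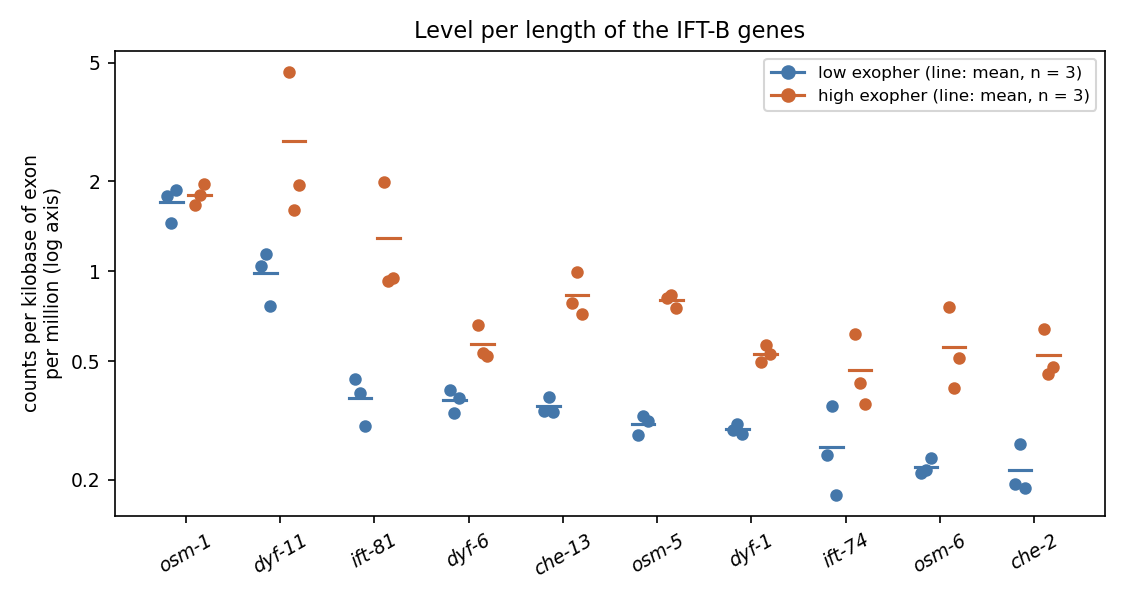
Level of each IFT-B gene in RPKM (y axis, log scale), ordered by the mean in low exopher worms (x axis). Points are libraries and lines are means of 3. *osm-1* has means of 1.70 and 1.81, whereas the other 9 genes sit higher in the high exopher libraries.

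Summed over the 10 genes, the level in CPM was 18, 16.6 and 17.6 in low and 33.1, 25.2 and 26 in high exopher worms. *osm-1* alone accounted for between 8.75 and 11.8 of these in every library. Without it the sum was 7.27, 7.88 and 6.35 CPM in low and 23.1, 14.3 and 14.2 CPM in high exopher worms. The sums thus did not overlap between groups with or without *osm-1*.

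The other genes of the pathway gave calls in the same direction. Of 43 genes for the remaining IFT-B subunits, IFT-A, the motors, the BBSome, the transition zone and cilium regulators, 15 were higher past the thresholds of edgeR's test and 0 were lower (28 had an unadjusted p under 0.05, DESeq2 called 16 higher and 0 lower). That compares with 2.95% and 2.78% of all genes. An unadjusted p under 0.05 was seen in 2708 of the 15883 genes tested, in either direction. Of the IFT-B and pathway genes together, 19 of the 37 under 1 RPKM were called higher and 0 of the 16 at or above it. The level used for this cut takes in the high exopher libraries. *dyf-11*, at 0.983 RPKM in low exopher worms, is thus among those above it. Over all genes placed on each side (4013 and 11818) these shares were 5.38% and 2.12%. The median of the 43 was 1.04 on the log2 scale, and all except 1 were above 0. With single libraries left out, the count of calls was 10 without low replicate 2, 3 without low replicate 1, 2 without high replicate 2 and 0 without low replicate 3, high replicate 1 or high replicate 3.

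Among the 4 other IFT-B subunits, *ifta-2*, a small GTPase of the RAB-like family and counterpart of IFT22, was higher with a log2 fold change of 1.90 (SE 0.45, adjusted p = 0.0492 from edgeR). Its counts were 26, 20 and 13 in low and 132, 46 and 60 in high exopher libraries. *dyf-3*, the counterpart of IFT38, gave 0.016 with an adjusted p of 0.989 (-0.038 with the replicate block) and, like *osm-1*, stood at a higher level than its partners, at 14 RPKM in low exopher worms. So 5 of the 14 IFT-B genes measured passed, or 8 of 14 with the replicate block, which added *osm-6*, *dyf-11* and *dyf-13* (1.25, adjusted p = 0.0352 from edgeR).

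IFT-A, the companion complex, had 2 of 6 genes higher and a median of 0.75, with *che-11*, the counterpart of IFT140, at 1.69 (adjusted p = 0.0237 from edgeR) and *ift-43* at 0.32 (0.430). The difference between the medians of the 2 complexes was not tested. Of the 7 motor genes 2 were higher, with the dynein light chain gene *dylt-2* at 2.5 (adjusted p = 0.0319 from edgeR) on counts of 1 to 21 and the kinesin-2 gene *klp-20* at 0.16 (0.561). The BBSome, a coat that travels with the trains, had 3 of 8 genes higher, from *bbs-2* at 1.67 (adjusted p = 0.0260 from edgeR) to *bbs-5* at 0.32 (0.581). The transition zone, the gate at the base of the cilium, had 6 of 12 higher and the values ran from *hyls-1*, a centriole protein gene, at 0.057 (adjusted p = 0.822 from edgeR) to *mks-2* at 2.13 (0.0858). Among the regulators 1 of 6 was higher, *dyf-5*, which encodes a kinase of ciliary length. In that list *dyf-18*, another kinase gene, gave 2.26 (adjusted p = 0.0706 from edgeR) and *ccpp-1*, a tubulin deglutamylase gene, -0.16 (0.441). *daf-19* itself, named after its values were seen, gave 0.18 (adjusted p = 0.502 from edgeR) with 2049 ± 228 and 2323 ± 116 normalized counts (SD, n = 3).

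Markers of the neurons that carry cilia gave no calls without the replicate block. Of 10 genes for sensory transduction in ciliated neurons 9 were tested and 0 passed with edgeR or DESeq2 (2 had an unadjusted p under 0.05, and 1 passed with the replicate block). The median of the 9 was 0.35, and the largest change was that of *tax-4*, a cyclic nucleotide-gated channel gene, at 1.18 (adjusted p = 0.150 from edgeR). The summed level of this list was between 104.4 and 106 CPM in low and between 101 and 110 CPM in high exopher libraries, but *odr-4* and *tax-6* held between 96.03% and 98.02% of it. Without these 2 genes, left out after their values were seen, the other 7 summed to between 2.09 and 2.89 CPM in low and between 2.47 and 4.003 CPM in high exopher libraries, which overlapped. Among them *tax-4* and *daf-11*, a guanylate cyclase gene (1.13, adjusted p = 0.185 from edgeR), were higher without overlap between groups, as were 11.8% of all genes. Of the 9 tested, 2 were below 0, *ocr-2* at -0.75 (adjusted p = 0.475 from edgeR) and *tax-6* at -0.18 (0.562). Of 15 genes used by all neurons, 0 passed with edgeR or DESeq2 (4 had an unadjusted p under 0.05), the median was -0.022 and the largest change was *sng-1* at 0.91 (adjusted p = 0.126 from edgeR). Their summed level was between 351 and 389 CPM in low and between 334 and 356 in high exopher libraries.

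Set against the neuronal genes within each library, the summed IFT-B level was 0.0462, 0.0474 and 0.0481 of theirs in low and 0.0931, 0.0708 and 0.0779 in high exopher libraries. The synaptobrevin gene *snb-1* held between 50.6% and 59.9% of the neuronal sum. Without it the ratio was 0.0936, 0.109 and 0.104 in low and 0.197, 0.156 and 0.194 in high exopher libraries, so that the groups were apart either way. Against IFT-A the ratio was 0.774, 0.738 and 0.905 in low and 0.925, 0.858 and 0.911 in high exopher libraries, and these overlapped. Both sums were weighted toward a gene with a small log2 fold change. These were *osm-1* (0.088), with between 8.75 and 11.8 CPM, and *ift-43* (0.32), the IFT-A gene with the most counts in every library. The ratio without these genes was not computed, so the overlap does not describe the other subunits. Against the 7 transduction genes left without *odr-4* and *tax-6* the IFT-B ratio was 6.22, 7.94 and 6.80 in low and 8.28, 6.64 and 10.5 in high exopher libraries, which overlapped as well. Here too the IFT-B sum held *osm-1*, and the ratio without it was not computed.

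Of 5 genes of amphid sheath glia, which wrap the sensory endings, 4 were tested and *daf-6*, a Patched-related gene for the shape of the amphid channel, was higher at 1.87 (adjusted p = 0.0124 from edgeR), while the list's median was -0.22. Genes listed for male ciliated neurons stayed near 0 where they could be tested, and the presence of stray males was not tested. Only 3 of the 10 had enough counts to test (largest change *cil-7* at 0.20, adjusted p = 0.891 from edgeR), and the polycystin genes *lov-1* and *pkd-2* were counted between 0 and 13 times per library and *cwp-1* never.

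**Figure D4:**
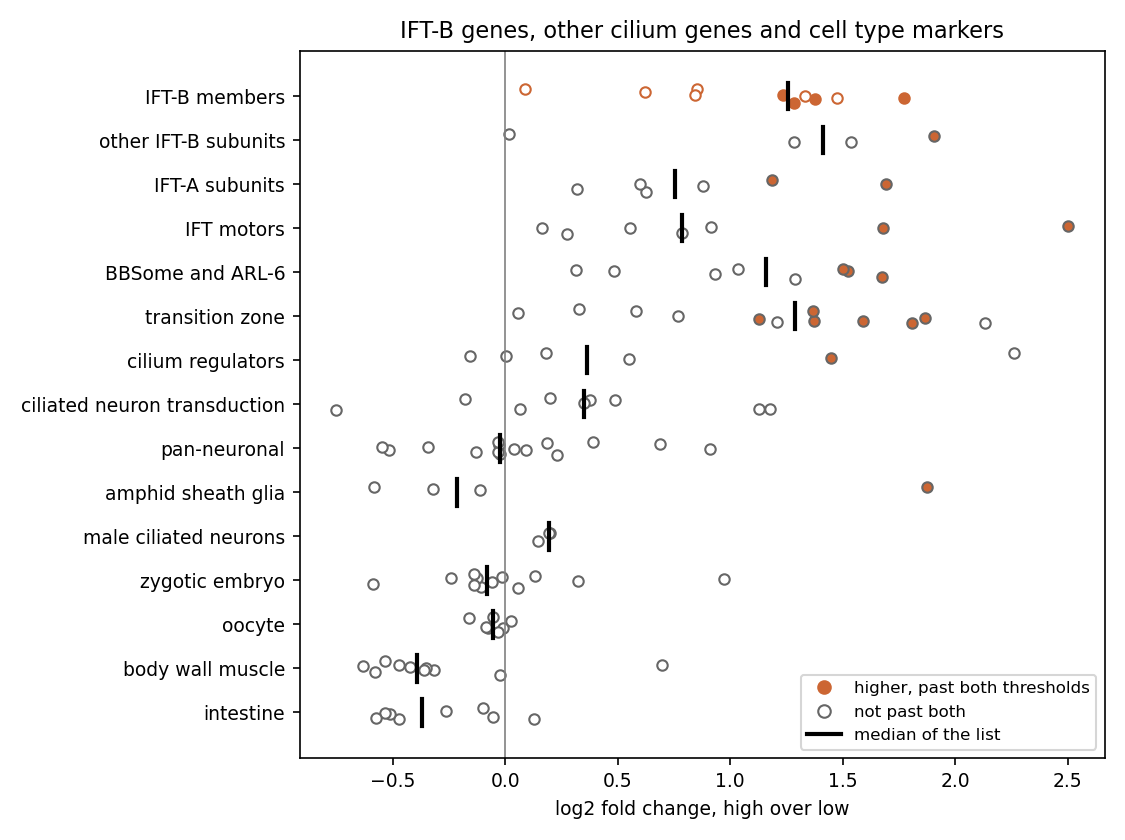
Log2 fold change, high over low exopher (x axis), of every tested gene of the IFT-B set, the pathway lists and the cell type lists (y axis). Each point is a gene, filled where it was higher past both thresholds, and black bars are list medians. The cilium lists have medians between 0.36 and 1.41, the neuronal and other cell type lists between -0.39 and 0.35, and the sperm list is not drawn.

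Genes of other cell types were read in the same libraries. Embryos held in the uterus contribute to whole worm RNA. The paper cites earlier work in which exopher formation needed fertility and embryos in the uterus. How many embryos the sequenced worms of each group held is not given in the material read. Of 12 tested genes expressed by the embryo itself, 0 passed both thresholds with edgeR or DESeq2 (1 had an unadjusted p under 0.05), with a median of -0.084. The exception in size was *hch-1*, which encodes the hatching enzyme of late embryos, with counts of 1519, 1795 and 916 in low and 2960, 3314 and 2521 in high exopher worms, which gave 0.97 on the log2 scale (SE 0.21, adjusted p = 0.0376 from edgeR). The list's summed level was between 33.6 and 50.7 CPM in low and between 50.1 and 76.2 CPM in high exopher libraries. Without *hch-1*, left out after its values were seen, it was between 17.99 and 22.9 CPM in low and between 14.04 and 26.6 CPM in high exopher libraries, which overlapped. *hch-1* thus moved with the IFT-B genes, and the part of late embryos in the IFT-B result was not tested. The embryo stages marked by the other genes of the list were not examined. Apart from *hch-1*, the list therefore gives no measure of late embryos. Sperm genes had 5 of 10 lower and 0 higher, most of all *msp-142*, a major sperm protein gene with close copies, counted 321, 41 and 125 times in low and 1, 0 and 0 times in high exopher libraries. Their summed level was between 22.7 and 47.2 CPM in low and between 8.33 and 12.6 in high exopher libraries, and its part in the result was not tested.

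Oocyte genes had 0 of 7 calls with edgeR or DESeq2 and 0 with an unadjusted p under 0.05, with the largest change in *glp-1* at -0.16 (adjusted p = 0.541 from edgeR). Body wall muscle genes, the tissue that makes the exophers, had 0 of 10 past both thresholds with edgeR or DESeq2 (8 had an unadjusted p under 0.05) and a median of -0.39, with 9 of the 10 below 0. *myo-3*, a myosin heavy chain gene, gave 0.70 (adjusted p = 0.0234 from edgeR). The troponin genes *tnt-2* at -0.63 (adjusted p = 0.0151 from edgeR) and *pat-10* at -0.43 (0.0443) and the paramyosin gene *unc-15* at -0.58 (0.0458), named after their values were seen, were lower by less than the fold change minimum. Intestinal genes had 0 of 8 with either tool (5 had an unadjusted p under 0.05) and a median of -0.37. Their largest change was in the yolk protein gene *vit-5* at -0.57 (adjusted p = 0.153 from edgeR). Over all genes, an unadjusted p under 0.05 was seen in 2708 of 15883, in either direction. The summed level of each of these 3 lists was at least 1941 CPM in every library, as labelled for whole worms.

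The genes whose profile over the 6 libraries was most like that of the IFT-B set were found by the root mean square difference of mean-centred log2 CPM. The 5 nearest of 15873 genes were WBGene00044342, Y116A8C.3, T22F3.12, Y75B8A.62 and *hlh-10*, at differences between 0.042 and 0.084. In that order they gave 0.99, 1.09, 1.5, 0.88 and 1.63 as log2 fold changes. The median difference was 0.549 over all genes and 0.319 over the 43 pathway genes, none of which was among the 100 nearest. Of the IFT-B genes themselves *che-2* was nearest to that mean profile, at 0.126, and *osm-1* farthest, at 0.506. Each of them is part of the mean it is compared with. With 6 libraries many genes that differ between the groups match such a profile, and nothing is said of shared control.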

How the data were processed

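The authors trimmed paired-end reads of poly(A)-selected RNA with Trimmomatic 0.36, aligned them with STAR 2.5.2b to an Ensembl *C. elegans* genome (release not given in the material read) and counted reads uniquely aligned to exons with featureCounts of Subread 1.5.2. The deposited counts per gene, without normalization, were used. A second deposited table, holding part of the genes after scaling, was not used. Whether counting used strand was not found. Multi-mapped reads were left out by the authors, so genes with close copies are less certain.

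The analysis ran in R 4.3.3 and used edgeR 4.0.16 (filterByExpr, TMM, robust quasi-likelihood F test, Benjamini-Hochberg adjustment over 15883 genes), with limma 3.58.1 and DESeq2 1.42.0 as alternatives. The thresholds (adjusted p under 0.05, log2 fold change above 1 in size) are those of the study's methods, which name DESeq2. A standard error is the log2 fold change over the square root of F. The method was also run on simulated data, with planted changes larger than any of the IFT-B genes showed. These were planted only in genes above a level that some of the IFT-B genes did not reach. That run therefore does not cover calls of the size and level seen here. Positions and exon lengths come from Ensembl release 115. Groups and replicates come from the labels.

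Libraries sharing a replicate number deviated together from the group means (r across genes 0.282, 0.259 and 0.345), so the numbers were read as pairs in a fit with a replicate block, beside the fit without it. Chi-square per gene between replicates, as a mean over genes, was 45.7 to 98.5. All 10 IFT-B genes were named. From each pathway list the genes with the largest and smallest change were named, and from each cell type list the gene with the largest absolute change. The IFT-B set and all lists were chosen with earlier results of these data known. No protein or promoter sequence was used here.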

Additional observations from a re-analysis of the deposited data

How the results depend on the processing

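Each result was recomputed under 13 alternatives: other size factors, no scaling factor, no filter, DESeq2, limma-voom, no robust fit, the replicate block and each library left out. Of 130 values of single IFT-B genes, 21 lost the call, 4 gained it, 1 changed sign (*osm-1*, which ranged from -0.029 without low replicate 2 to 0.16 without low replicate 3) and the others kept direction and side of the thresholds. With single libraries left out, the count of IFT-B genes past the thresholds was between 0 and 3 and that of pathway genes between 0 and 10; the smaller number of libraries is part of these settings. Under the other alternatives the counts were 4 to 6 and 13 to 17, with 6 and 17 under the replicate block, which among the 14 IFT-B genes measured added the calls of *osm-6*, *dyf-11* and *dyf-13* and removed none. The median log2 fold change of the IFT-B genes ranged from 0.97 to 1.34 and the 9 genes without overlap were 9 in number under each scaling. Counting error is widest for *osm-6*, with counts from 21, and narrowest for *osm-1*, with counts up to 825.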
